A study of Saccharomyces cerevisiae with 16 samples.

Results

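The genes described here are 10 phosphate-related genes of the wine yeast Saccharomyces cerevisiae EC1118, namely PHO4, PHO5, PHO8, PHO11, PHO12, PHO81, PHO84, PHO89, SPL2 and GIT1. They were picked out by gene symbol in the annotation of the array, where each of the 10 genes had 1 probe out of 6271. The choice was made with earlier results of these data known, so their medians and ranks among all features are description only. EC1118 is a commercial diploid wine strain, and it was grown in a synthetic must that held 200 g/L of glucose. Nitrogen that yeast can use was set at 100 mg/L. Levels were compared over 4 groups. The ammonium group (n = 3) and the valine group (n = 3) came from the third tank of a continuous fermentation with 4 tanks in series, into which ammonium or valine was fed to give 100 mg/L more nitrogen. The no-addition group (n = 4) came, like these, from the third tank, with nothing fed, nitrogen exhausted and 164 g/L of glucose remaining. The batch group (n = 4) came from the stationary phase of batch cultures at 28 °C with the same residual glucose. The sources used here do not give phosphate levels of the medium. Samples of the continuous culture were drawn at intervals of 24 h from the running tanks, so p-values measure the spread between samplings, which may be technical.

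Yeast takes up inorganic phosphate through the high-affinity carriers Pho84 and Pho89 and through low-affinity carriers, and it releases phosphate from organic compounds with secreted acid phosphatases and a vacuolar alkaline phosphatase. When phosphate is scarce, the inhibitor Pho81 restrains the cyclin-kinase pair Pho80-Pho85, and the transcription factor Pho4 then stays in the nucleus and, with Pho2, turns on the genes of the pathway. When phosphate is plentiful, Pho4 is phosphorylated and leaves the nucleus. Git1 imports glycerophosphoinositol, a product of phospholipid deacylation that can serve as a source of both phosphate and inositol.

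RNA from whole cultures was hybridised to 1-colour arrays, and each probe has 1 deposited log2 intensity for every array. In such bulk samples fewer expressing cells and less RNA per cell cannot be told apart. Array medians lay between 9.09 and 9.10 and array minima between 5.50 and 5.56, so each value is relative to the whole of its array. The SD over genes of the difference between samples of the same group was 0.11 to 0.30, that between the 2 arrays of ammonium sample 3 was 0.17, and batch sample 1, ammonium sample 2 and valine sample 3 stood farthest from their groups. A further sample whose labels name ammonium in some fields and valine in others was left out of all comparisons. The mean of 5 of 6 nitrogen-starvation genes was 12.77 to 13.23 in ammonium samples and 13.44 to 13.51 in valine samples, against 13.95 to 13.99 in no-addition samples and 14.06 to 14.10 in batch samples, and 8 haploid mating genes averaged 6.23 to 6.42 over all samples. The mean of 6 general stress genes was 9.28 to 9.74 with ammonium and 9.62 to 10.03 with valine, against 12.80 to 13.12 without addition and 12.41 to 13.08 in batch. The part of these shifts in the results below was not tested.

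With either nitrogen source PHO84, PHO11, PHO12, PHO5, PHO4 and GIT1 rose against no addition and PHO8 fell, while PHO89 stayed near the bottom of the scale. A difference is called where limma's adjusted p, over all 6248 genes or unnamed probes of a comparison, was under 0.05. With ammonium 6 of the 10 genes rose and 2 fell against no addition. Of all features 67.6% were called there, 32.1% higher and 35.5% lower. With valine 7 rose and 1 fell, beside 67.9% of all features called, 32.3% higher and 35.6% lower. The median difference of the 10 genes was 0.54 with ammonium and 0.57 with valine on the log2 scale, beside -0.02 and -0.01 over all features. At least 2-fold changes were called in 3 of the 10 genes with ammonium (12.5% of all features) and in 4 with valine (12.2% of all features). Groups did not overlap in 9 genes for ammonium (71.5% of all features) and 8 for valine (69.6%). Since so many features changed, the number of calls among the 10 genes is close to that of the array, and what follows is about the sizes and directions.

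**Figure D1:**
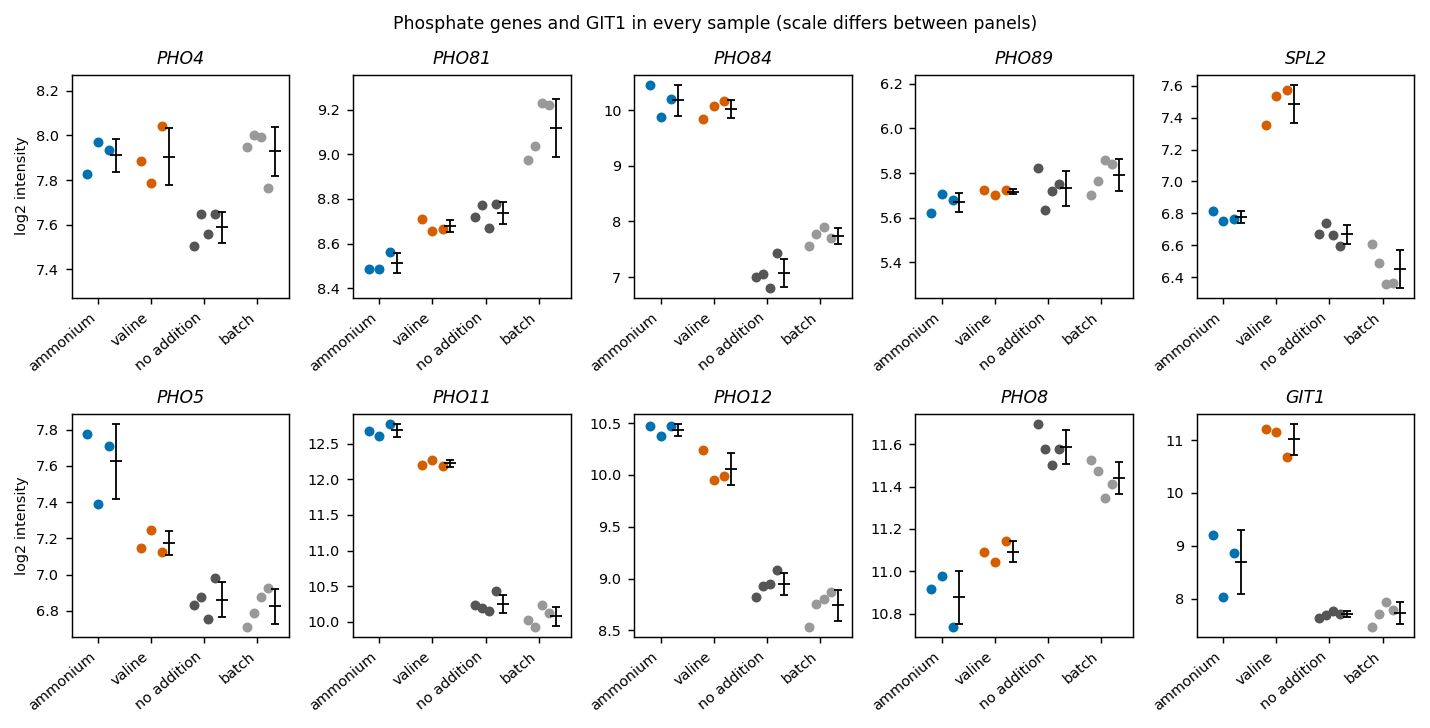
Log2 intensity (vertical axis) of the 10 genes in every sample of the ammonium, valine, no-addition and batch groups, 1 point per sample, with the mean and SD as a bar beside the points; the vertical scale differs between panels. PHO84 lay at 9.84 to 10.45 in all samples with added nitrogen and at 6.81 to 7.90 in all others, whereas GIT1 was highest with valine (10.68 to 11.20).

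PHO84, the main high-affinity phosphate carrier, showed the largest difference among the 10 genes for ammonium minus no addition. It had log2 intensities of 10.45, 9.88 and 10.20 in ammonium samples, 9.84, 10.08 and 10.16 in valine samples, 7.01, 7.05, 6.81 and 7.43 in no-addition samples, and 7.56, 7.77, 7.90 and 7.71 in batch samples. Every sample with added nitrogen was above every sample without it. The rise against no addition was 3.10 ± 0.145 (SE, limma, adjusted p = 2.11e-10) with ammonium, or 8.58-fold, and 2.95 ± 0.145 (adjusted p = 4.34e-10) with valine, or 7.74-fold. Among all features PHO84 stood 22nd from the top with ammonium and 21st with valine. The 2 supplements did not differ beyond their spread in PHO84, with ammonium minus valine at 0.15 and a 95% confidence interval of -0.18 to 0.48 (adjusted p = 0.569). The arrays lay on 2 slides. Slide 1 held 1 ammonium, 2 valine, 1 no-addition and 3 batch arrays, and slide 2 held 3, 1, 3 and 1 in this order. Ammonium sample 3 had an array on each, so the slides are not independent. A group of 1 array has no spread of its own, so calls kept or lost within a slide say little. Within slide 1 and slide 2 the ammonium difference was 3.16 and 3.09 and the valine difference 2.95 and 3.06.

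PHO89, the sodium-coupled high-affinity carrier that works at alkaline pH, did not share this rise. Its values were 5.62 to 5.70 in ammonium samples, 5.70 to 5.72 in valine samples, 5.63 to 5.82 in no-addition samples and 5.70 to 5.86 in batch samples. All of these lie near the minimum of the arrays, where differences are compressed. None of the 6 comparisons between groups was called for PHO89, and the interval was -0.18 to 0.05 for ammonium and -0.13 to 0.10 for valine, each minus no addition.

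SPL2, which encodes a small protein that restrains low-affinity phosphate uptake, rose with valine. It had log2 intensities of 6.82, 6.75 and 6.76 in ammonium samples, 7.35, 7.54 and 7.57 in valine samples, 6.67, 6.74, 6.67 and 6.60 in no-addition samples, and 6.61, 6.49, 6.36 and 6.36 in batch samples. The valine samples stood above all others, and the ammonium samples lay just above the no-addition samples. The rise with valine was 0.82 ± 0.07 (limma, adjusted p = 1.00e-07), whereas the ammonium difference of 0.11 (95% interval -0.04 to 0.26, adjusted p = 0.178) was not called. Ammonium minus valine was tested directly and came to -0.71 ± 0.07 (adjusted p = 2.75e-05), with -0.62 within slide 1, where the call was lost (adjusted p = 0.181), and -0.82 within slide 2 (0.00324). SPL2 is dim on these arrays, so the sizes may be understated.

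GIT1 set the 2 nitrogen sources apart more than any other of the 10 genes. It had log2 intensities of 9.20, 8.03 and 8.87 in ammonium samples, 11.20, 11.16 and 10.68 in valine samples, 7.64, 7.70, 7.78 and 7.72 in no-addition samples, and 7.47, 7.72, 7.95 and 7.79 in batch samples. Valine samples were above all others, ammonium samples lay between, and ammonium sample 2 was only a little above the highest batch sample. With valine GIT1 rose by 3.30 ± 0.21 (limma, adjusted p = 5.52e-09), or 9.88-fold, the 15th highest of all features. With ammonium it rose by 0.99 ± 0.21 (adjusted p = 7.34e-04), or 1.99-fold. The ammonium rise was 1.32 without ammonium sample 2 and 0.74 without ammonium sample 1.

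The difference between the supplements in GIT1 was -2.32 ± 0.22 for ammonium minus valine (limma, adjusted p = 1.33e-05), so the gene was 4.98-fold lower with ammonium. In that comparison 3 of the 10 genes were higher and 2 lower with ammonium, beside 16.4% of all features called, 7.59% higher and 8.79% lower. GIT1 was the 1 gene called with at least a 2-fold change (0.448% of all features), and groups did not overlap in 7 of the 10 (34.3% of all features). GIT1 stood 4th from the bottom of 6248 features. The value was -2.15 within slide 1 and -2.03 within slide 2, and -2.15 without batch sample 1, ammonium sample 2 and valine sample 3. The 2 arrays of ammonium sample 3 read 9.03 and 8.71, the widest gap between them among the 10 genes. No-addition and batch samples did not differ beyond their spread in GIT1 (-0.02, 95% interval -0.44 to 0.39).

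**Figure D2:**
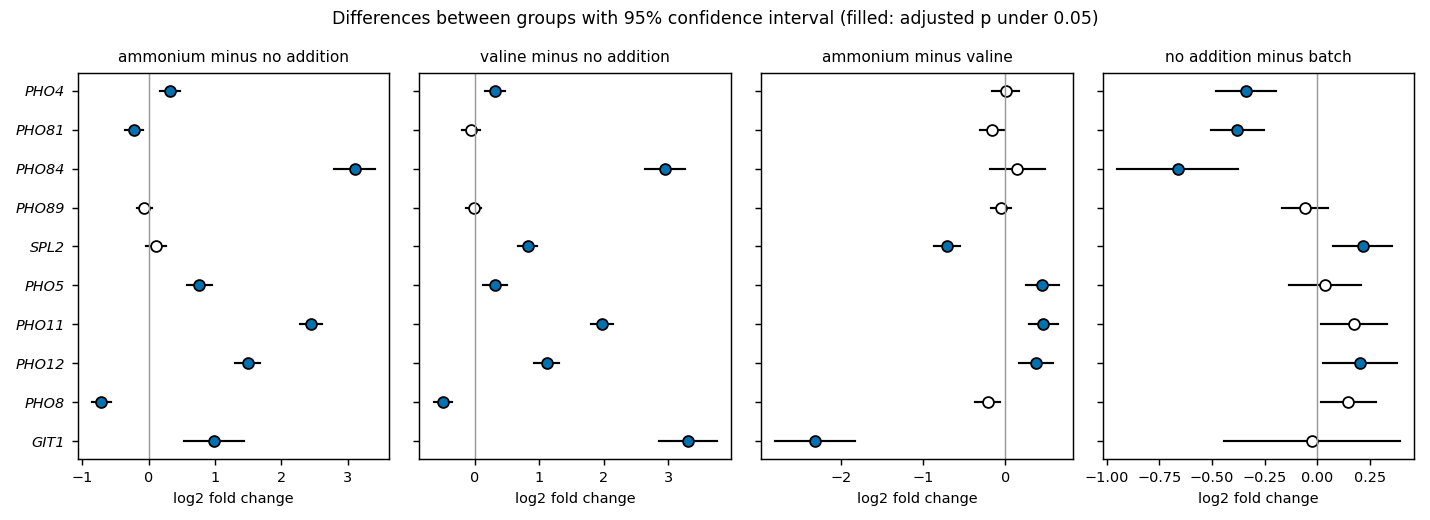
Log2 fold change (horizontal axis) of the 10 genes in 4 comparisons, each point with its 95% confidence interval, filled where limma's adjusted p was under 0.05; the horizontal scale differs between panels. In the panel for ammonium minus valine, GIT1 (-2.32) and SPL2 (-0.71) lie left of 0, and PHO5, PHO11 and PHO12 (0.38 to 0.47) lie right of it.

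The secreted acid phosphatases PHO5, PHO11 and PHO12 all rose with either supplement, and more with ammonium. PHO5 encodes the main repressible acid phosphatase, and PHO11 and PHO12 are near-identical copies of another, so that their probes can share signal. PHO11 had log2 intensities of 12.68, 12.61 and 12.78 in ammonium samples, 12.21, 12.28 and 12.19 in valine samples, 10.23, 10.19, 10.15 and 10.43 in no-addition samples, and 10.02, 9.92, 10.23 and 10.12 in batch samples. Against no addition it rose by 2.44 ± 0.08 (limma, adjusted p = 9.13e-12) with ammonium and by 1.98 ± 0.08 (adjusted p = 6.98e-11) with valine, which is 5.44-fold and 3.94-fold. The lowest ammonium sample was above the highest valine sample.

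PHO12 had 10.47, 10.37 and 10.47 in ammonium samples, 10.24, 9.96 and 9.98 in valine samples, 8.82, 8.93, 8.95 and 9.08 in no-addition samples, and 8.53, 8.75, 8.80 and 8.87 in batch samples. It rose by 1.49 ± 0.09 with ammonium and by 1.11 ± 0.09 with valine (limma, adjusted p = 2.22e-09 and 4.97e-08). The groups came in the same order as in PHO11. The step between no addition and batch, at 0.20, was no smaller than in PHO11 (0.18), while the other steps were.

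PHO5 had 7.78, 7.39 and 7.71 in ammonium samples, 7.15, 7.25 and 7.13 in valine samples, 6.84, 6.88, 6.76 and 6.98 in no-addition samples, and 6.71, 6.79, 6.88 and 6.93 in batch samples. The groups with added nitrogen did not overlap with the others or with each other. PHO5 rose by 0.76 ± 0.09 with ammonium and by 0.31 ± 0.09 with valine (limma, adjusted p = 2.09e-06 and 0.0054). Within slides the valine difference kept its sign but not its call, at 0.36 on slide 1 (adjusted p = 0.0538) and 0.26 on slide 2 (0.186).

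Ammonium minus valine was 0.45 ± 0.09 in PHO5, 0.47 ± 0.08 in PHO11 and 0.38 ± 0.09 in PHO12 (limma, adjusted p = 0.0053, 0.00241 and 0.0154). Within slide 1 it was 0.54, 0.62 and 0.29, and within slide 2 0.49, 0.47 and 0.48. On a single slide the call held in PHO12 on slide 2 (adjusted p = 0.0411) and was lost in the others (0.073 to 0.651). The PHO12 difference also lost its call without ammonium sample 3 (0.0517) or valine sample 2 (0.0826).

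PHO3 was measured beside them because it encodes the constitutive acid phosphatase, which is repressed by thiamine, lies next to PHO5 in the genome and is highly similar to it in sequence. It had 12.81 to 13.01 in ammonium samples and 12.30 to 12.57 in valine samples, against 7.57 to 9.002 in no-addition samples and 7.81 to 8.20 in batch samples. The rise was 4.95 ± 0.26 with ammonium and 4.46 ± 0.26 with valine (limma, adjusted p = 6.72e-10 and 2.23e-09). No-addition sample 4, at 9.002, stood apart from 7.57 to 7.66 in the other 3, and without it the rises were 5.30 and 4.81. Every ammonium sample was above every valine sample in PHO3, as in PHO5, PHO11 and PHO12. Ammonium minus valine in PHO3 was not called with all samples. Without no-addition sample 4 it was 0.49 (limma, adjusted p = 0.00555). The mean of 6 thiamine genes was also high with added nitrogen, at 14.24 to 14.34 with ammonium and 13.51 to 13.90 with valine, against 10.69 in no-addition sample 4, 8.63 to 8.75 in the other no-addition samples and 7.97 to 8.26 in batch samples. Between no addition and batch PHO3 was at -0.003 with all samples, not called (limma, adjusted p = 0.991). Without no-addition sample 4, PHO3 was lower than in batch (-0.35, limma, adjusted p = 0.0052). All thiamine means without addition were above those in batch. Of the 6 thiamine genes, THI20 alone averaged lower without addition (11.04) than in batch (11.18). PHO5, PHO11, PHO12 and PHO84 too were highest of their group in no-addition sample 4. Whether signal from PHO3 RNA reached the probes of the other acid phosphatases was not tested.

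**Figure D3:**
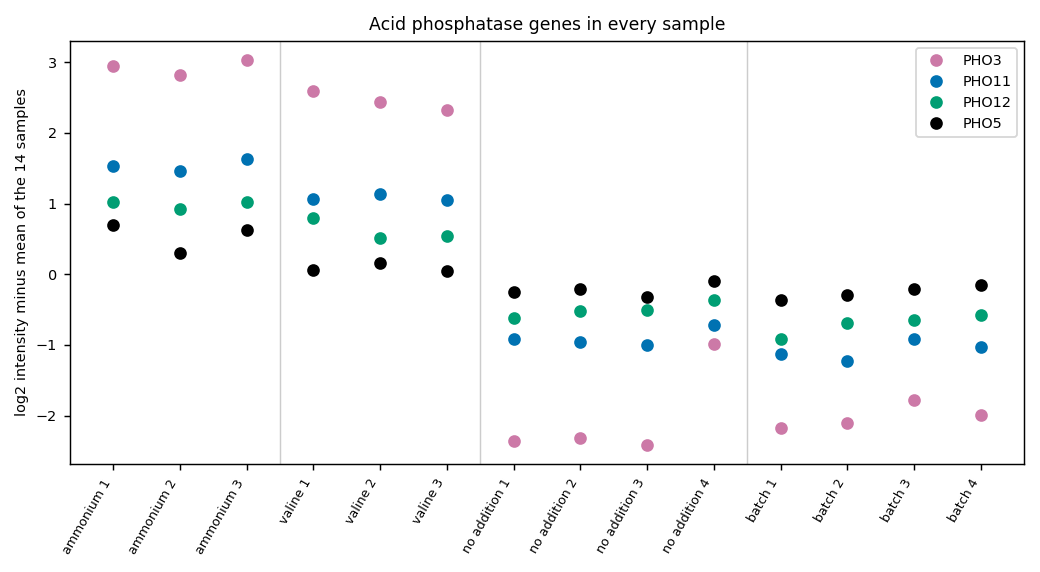
Log2 intensity of PHO3, PHO11, PHO12 and PHO5 in each sample, each gene minus its own mean over the 14 samples (vertical axis), with the ammonium, valine, no-addition and batch samples from left to right. All 4 genes are higher with added nitrogen, and PHO3 is also raised in no-addition sample 4, at 9.002 before centring.

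PHO8, the vacuolar alkaline phosphatase, went the other way. It had 10.92, 10.98 and 10.74 in ammonium samples, 11.09, 11.04 and 11.14 in valine samples, 11.70, 11.58, 11.50 and 11.58 in no-addition samples, and 11.52, 11.47, 11.35 and 11.41 in batch samples. All samples with added nitrogen were below all others. PHO8 fell by 0.71 on the log2 scale (SE 0.07, limma, adjusted p = 2.56e-07) with ammonium and by 0.50 (SE 0.07, adjusted p = 1.10e-05) with valine. Ammonium minus valine at -0.22 lay just outside the threshold (adjusted p = 0.0532, and 0.00312 to 0.215 over the alternatives), although the 2 groups did not overlap.

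The regulators moved little against no addition. PHO4, the transcription factor of the pathway, had 7.83, 7.97 and 7.93 in ammonium samples, 7.88, 7.79 and 8.04 in valine samples, 7.50, 7.65, 7.56 and 7.65 in no-addition samples, and 7.95, 8.00, 7.99 and 7.77 in batch samples. The no-addition samples were below all others, and ammonium, valine and batch overlapped. PHO4 rose by 0.32 ± 0.07 with either supplement (limma, adjusted p = 0.00122 for ammonium and 0.0014 for valine), and ammonium minus valine was 0.01 with a 95% interval of -0.16 to 0.17. Within slide 1 these rises were 0.32 and 0.33, not called (adjusted p = 0.124 and 0.0748), and within slide 2 0.33 and 0.42.

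PHO81, the inhibitor of the Pho80-Pho85 kinase and itself a target of Pho4, was lowest with ammonium. It had 8.49, 8.49 and 8.56 in ammonium samples, 8.71, 8.66 and 8.67 in valine samples, 8.72, 8.77, 8.67 and 8.78 in no-addition samples, and 8.97, 9.04, 9.23 and 9.22 in batch samples. Batch samples were above all others, and valine samples overlapped with no-addition samples. It fell by 0.22 (SE 0.06, limma, adjusted p = 0.00587) with ammonium, a value of -0.20 within slide 1 that was not called (0.355) and of -0.21 within slide 2. With valine the difference of -0.06 (95% interval -0.19 to 0.08) was not called.

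The third stage without addition was also set against batch, which asks how resting cells of the continuous culture differed from stationary batch cells at the same residual sugar. PHO84 was 0.66 ± 0.13 lower on the log2 scale in the third stage, PHO81 0.38 ± 0.06 lower and PHO4 0.34 ± 0.07 lower (limma, adjusted p = 6.98e-04, 6.52e-05 and 6.01e-04), each without overlap of the groups. SPL2 was 0.21 ± 0.06 higher and PHO12 0.20 ± 0.08 higher (adjusted p = 0.0105 and 0.0451), both with overlap between the groups. The PHO12 call was lost under 15 of 27 alternatives, and its value was 0.08 within slide 1. PHO5, PHO8, PHO11, PHO89 and GIT1 were not called. That made 5 of 10 genes called, 2 higher and 3 lower, beside 57.3% of all features, 30.3% higher and 27% lower. None of the 5 reached 2-fold (4.37% of all features), and groups did not overlap in 3 of the 10 (52.4% of all features).

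Within slide 1 the difference between the third stage and batch was -0.72 in PHO84, -0.42 in PHO81, -0.40 in PHO4 and 0.23 in SPL2, and within slide 2 it was -0.68, -0.30, -0.39 and 0.18. The calls lost within a slide were those of PHO81 (adjusted p = 0.0545) and PHO4 (0.052) on slide 1, PHO84 on slide 2 (0.0685) and SPL2 on both (0.263 and 0.136).

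Since PHO84 was lowest without addition, its differences against batch were smaller, at 2.44 ± 0.145 for ammonium and 2.29 ± 0.145 for valine (limma, adjusted p = 1.70e-09 and 3.83e-09). Set against batch, where 68.7% of all features were called for ammonium and 66.5% for valine, 6 of the 10 genes were higher and 2 lower with each supplement. Over all features 33.2% were higher and 35.5% lower with ammonium, and 31.6% and 34.8% with valine. A 2-fold change was called in 3 of the 10 genes with ammonium (13.1% of all features) and in 5 with valine (12.4%), and groups did not overlap in 8 genes with either (65.6% and 62.5% of all features). The higher genes were PHO5, PHO11, PHO12, PHO84, SPL2 and GIT1, and the lower ones were PHO8 and PHO81. PHO81 was 0.60 below batch with ammonium and 0.44 below it with valine (limma, adjusted p = 7.65e-07 and 2.20e-05). PHO8 was 0.56 and 0.35 below batch in the same order (limma, adjusted p = 2.65e-06 and 3.01e-04). GIT1 was 3.28 ± 0.21 above batch with valine and 0.97 ± 0.21 above batch with ammonium, and SPL2 1.03 ± 0.07 and 0.32 ± 0.07 (adjusted p = 4.34e-09, 8.52e-04, 7.09e-09 and 7.47e-04). PHO4 did not differ from batch beyond its spread, at -0.02 with either supplement.

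The orders of the levels differed between genes. PHO5, PHO11 and PHO12 ran from ammonium over valine to no addition and batch, and the last step was called in PHO12 alone. GIT1 and SPL2 ran from valine over ammonium to no addition or batch. In SPL2 ammonium and no addition were neighbours that did not differ beyond their spread, and in GIT1 no addition and batch. In PHO84 ammonium and valine were such neighbours, above batch and then no addition.

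The genes nearest to PHO84, GIT1, SPL2 and PHO5 were found by the root mean square difference of log2 values over the 14 samples, each gene centred on its own mean, among 4782 named genes. The values were not scaled, so this distance depends on the size of the changes as well as on the order of the groups. Nearest to PHO84 were MET10 of sulfite reduction (0.26), LEU9 of leucine synthesis (0.27) and CYS3 of cysteine synthesis (0.30), and the nearest of the 10 phosphate genes was PHO11, in 16th place. Nearest to GIT1 were STR3, a cystathionine beta-lyase (0.39), DIP5, a dicarboxylic amino acid permease (0.49), and ARG8 of arginine synthesis (0.52), with PHO84 in 143rd place. The dicarboxylic permease gene DIP5 averaged 10.68 with ammonium, 13.38 with valine, 9.85 without addition and 10.73 in batch. STR3 rose by 1.45 with ammonium and by 2.76 with valine against no addition. For SPL2 the nearest were GTO1, GGA2 and VPS29 (0.14 to 0.15), and for PHO5 they were SOM1, BRE5 and PCL2 (0.11 to 0.12). The nearest of the other phosphate genes, PHO4, stood in 1574th and 1447th place. PHO4 moved little, and its mean in batch (7.93) was level with ammonium (7.91) and valine (7.90), unlike SPL2 and PHO5. Its place therefore does not mean a shared order of groups. These distances share the 14 arrays and their normalization and carry no test.

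**Figure D4:**
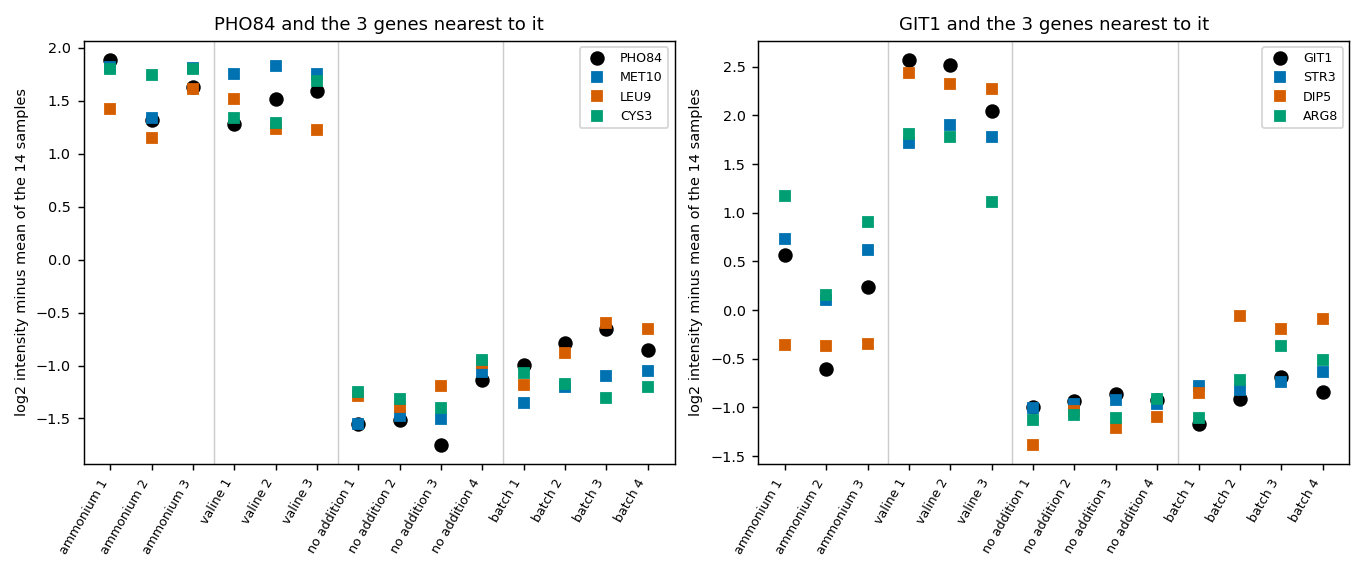
Log2 intensity of PHO84 and of GIT1 with the 3 genes nearest to each, every gene minus its own mean over the 14 samples (vertical axis), in each sample of the ammonium, valine, no-addition and batch groups. In the left panel all genes are high with both supplements. In the right panel the mean of each gene is highest with valine, although ammonium and valine samples overlap in ARG8. Root mean square differences to GIT1 are 0.39 to 0.52.

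Beyond the 10 genes, a list of 42 further genes of phosphate signalling, transport, storage and release was followed, of which 39 were measured. With ammonium 12 rose and 15 fell against no addition, and with valine 16 rose and 12 fell, shares of calls near those of the whole array. Their medians were 0.01 and 0.10, beside -0.02 and -0.01 over all features. Between ammonium and valine 3 were higher and 7 lower with ammonium, beside 7.59% and 8.79% of all features. In the third stage without addition 14 were higher and 9 lower than in batch, beside 30.3% and 27% of all features.

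Among the signalling genes PHO85, the kinase, fell against no addition by 0.41 with ammonium and by 0.44 with valine (limma, adjusted p = 1.09e-05 and 6.39e-06). PHO85 was 0.59 higher without addition than in batch (limma, adjusted p = 2.87e-07). With ammonium and valine it was still 0.18 and 0.16 above batch (limma, adjusted p = 0.00987 and 0.0225). Its cyclin partner PHO80 had 8.70, 8.74 and 9.31 in valine samples, against 8.46 to 8.64 in no-addition samples. That rise of 0.37 (limma, adjusted p = 0.0115) rests on valine sample 2, without which it was 0.17 and not called (0.0541), and on slide 2 alone it was 0.12. PHO2, the partner of Pho4, was at 0.01 and 0.02 and was not called. Of 7 enzymes of inositol polyphosphates and pyrophosphates, 6 fell and 1 rose with ammonium, beside 35.5% of all features lower and 32.1% higher, and 5 fell and 1 rose with valine, beside 35.6% and 32.3%. The multikinase ARG82 fell by 0.78 and 0.54, the pyrophosphate kinase KCS1 by 0.44 and 0.25 and the pyrophosphatase DDP1 by 0.68 and 0.67, in ammonium and valine samples in this order, whereas the kinase VIP1 rose by 0.43 and 0.41. Against batch, KCS1 and DDP1 were also called lower with either supplement. ARG82 minus batch was -0.22 with ammonium and 0.02, not called, with valine, and VIP1 0.22 and 0.20, the latter not called. ARG82 was 0.56 higher without addition than in batch. On slide 1 alone the ammonium differences from no addition among these 7 were -0.31 in KCS1, 0.45 in VIP1, -0.20 in PLC1, -0.29 in IPK1 and -0.16 in SIW14. The valine differences there were -0.13 in KCS1, 0.52 in VIP1, -0.36 in ARG82, -0.25 in IPK1 and -0.04 in SIW14. None of these values was called on that slide.

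The low-affinity phosphate carriers PHO87 and PHO90 rose against no addition by 0.44 and 0.63 with ammonium and by 0.31 and 0.36 with valine (limma, all adjusted p at most 1.41e-04). PHO87 was also called higher than batch, by 0.35 and 0.23. PHO90 was 0.55 lower without addition than in batch. Its difference from batch was 0.08, not called, with ammonium and -0.19, called, with valine. MIR1, the phosphate carrier of the mitochondrial inner membrane, fell by 1.14 with ammonium and by 0.84 with valine. In the polyphosphate list VTC4, the catalytic subunit of the vacuolar polymerase, rose by 0.45 and 0.47 with ammonium and valine, and VTC3 by 0.24 and 0.21. On slide 1 alone PHO87 was at 0.24 with valine, and VTC3 at 0.24 with ammonium and 0.27 with valine, none of them called there. On slide 2 alone VTC3 was at 0.20 with valine, also not called. VTC1 and VTC2 were not called with either supplement. The exopolyphosphatase PPX1 rose by 0.59 with valine and was at 0.11, not called, with ammonium.

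Other phosphatases parted. PHM8, a phosphatase of lysophosphatidic acid and nucleotides that is induced by phosphate starvation, had 9.55 ± 0.20 (SD, n = 3) with ammonium and 9.67 ± 0.05 (n = 3) with valine, against 11.37 ± 0.07 (n = 4) without addition and 12.04 ± 0.12 (n = 4) in batch. It fell by 1.83 with ammonium and by 1.70 with valine (limma, adjusted p = 2.32e-10 and 5.97e-10). DIA3, a relative of the acid phosphatases, fell by 1.45 and 0.95 in the same comparisons. The inorganic pyrophosphatase IPP1 was higher by 1.00 and 0.95.

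Of 5 further genes known to be induced by phosphate starvation, 3 fell and none rose with ammonium, and 1 fell and 1 rose with valine. Among all features 35.5% were lower and 32.1% higher with ammonium, and 35.6% and 32.3% with valine. PHM7 fell by 2.11 with ammonium and by 2.09 with valine (limma, adjusted p = 7.97e-10 and 1.09e-09). PHM6 fell by 0.92 with ammonium (adjusted p = 3.76e-06) and was at -0.19, not called, with valine. GDE1, which cleaves imported glycerophosphodiesters inside the cell, fell by 0.76 with ammonium (adjusted p = 1.32e-05) and was at -0.16, not called, with valine. In direct comparison PHM6 and GDE1 were lower with ammonium than with valine by 0.74 and 0.60 on the log2 scale (adjusted p = 0.00107 and 0.00272). These calls were lost within single slides, where the PHM6 difference was -0.87 and -0.44 and the GDE1 difference -0.53 and -0.48 (adjusted p of 0.0713 to 0.354), and on slide 1 alone the fall of GDE1 with ammonium was -0.48 and not called (0.122). CTF19, listed with them, rose by 0.14 with valine (adjusted p = 0.048), a call lost when most single samples were left out, and was at 0.14, not called, with ammonium (0.0506). GPP2, a glycerol phosphatase also called HOR2, was 1.31 ± 0.18 lower in the third stage without addition than in batch (adjusted p = 2.37e-05), and not called with either supplement.

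Of 4 genes of phospholipases that release glycerophosphodiesters, 3 rose with ammonium and 2 with valine, beside 32.1% and 32.3% of all features. PLB2 had 10.45 ± 0.24 (SD, n = 3) with ammonium and 10.18 ± 0.23 (n = 3) with valine, against 8.99 ± 0.09 (n = 4) without addition and 8.52 ± 0.09 (n = 4) in batch, a rise of 1.46 and 1.19 over no addition (limma, adjusted p = 3.16e-08 and 2.91e-07). PLB3 rose by 0.96 and 0.54, and with valine on slide 1 alone it was at 0.29, not called (adjusted p = 0.243). NTE1 was at 0.16 and 0.17 and was not called. PLB1, another phospholipase B, rose by 0.41 with ammonium, and at 0.11 was not called with valine. On slide 1 alone the PLB1 rise with ammonium was 0.27 and not called. PLB1 and PLB3 were higher with ammonium than with valine (0.30 and 0.41, adjusted p = 0.00802 and 0.0223), whereas the importer gene GIT1 was lower. Within single slides neither of these calls held (adjusted p of 0.167 to 0.67), and that of PLB3 was also lost without ammonium sample 1 or 3 or valine sample 1 or 2 (0.0541 to 0.103).

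**Figure D5:**
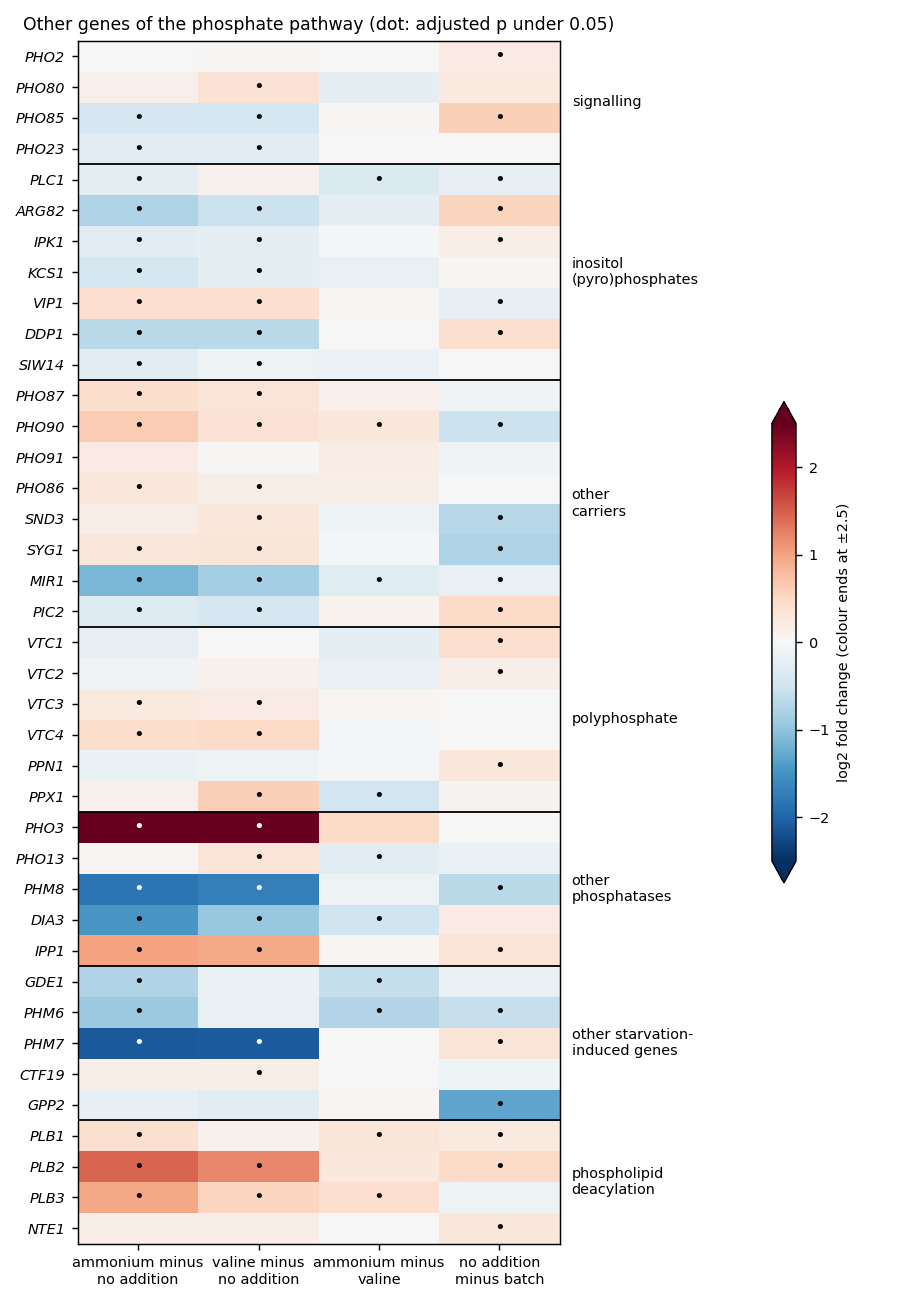
Log2 fold change (colour, red for higher and blue for lower in the group named first) of the 39 further pathway genes in rows, grouped by role, in 4 comparisons in columns; a dot marks limma's adjusted p under 0.05. PHO3, PLB2 and IPP1 are red and PHM7, PHM8, DIA3 and MIR1 blue under both supplements, and GPP2 is blue in the comparison of no addition with batch (-1.31).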

How the data were processed

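The authors deposited log2 intensities, with 1 value for each probe on every array; R 2.13.1 and limma appear in the submitters' processing notes. That the scale is log2 was judged from the range of the values, and how background and normalization were handled is not given in the sources used here. Both arrays of ammonium sample 3 were averaged. Probe names came from the platform annotation, updated through RefSeq's gene table (5220 of 6271 probes had a symbol). Averaging probes of a gene left 6248 features, and dim ones were kept. One limma fit (version 3.58.1, R 4.3.3, lmFit with eBayes, checked on simulated data) held 14 samples, a mean for each group and 10 residual degrees of freedom. Its two-sided p-values were adjusted by Benjamini-Hochberg over all features of each of 6 comparisons. Pathway genes called with at least a 2-fold change were named by rule, and further ones after their values were seen. The genes and lists were chosen with earlier results of these data known. Alternatives covered normalization, array weights, slides, replicate numbers, dim features, smaller fits and left-out samples. A planned search of promoters for motifs was not run, since no sequences were used here.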

Additional observations from a re-analysis of the deposited data

Results flagged for a closer look

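The response to ammonium differed from that to valine in 5 of the 10 genes, tested as ammonium minus valine with limma, beside 16.4% of all features. The difference was 0.45 in PHO5 (adjusted p = 0.0053), 0.47 in PHO11 (0.00241), 0.38 in PHO12 (0.0154), -0.71 in SPL2 (2.75e-05) and -2.32 in GIT1 (1.33e-05). Of the further pathway genes with 2-fold changes, MIR1 at -0.29 (0.0203) and DIA3 at -0.50 (0.0108) differed as well. MIR1 lost its call on slide 1 (0.532), on slide 2 (0.166), without ammonium sample 2 (0.0652) and without valine sample 2 (0.105), and DIA3 on slide 1 (0.275) and slide 2 (0.103).

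Of the groups of 4, no-addition sample 4 stood far from the others in PHO3, at 9.002 against 7.57 to 7.66, and no-addition sample 2 in PHM8, at 11.47 against 11.32 to 11.35. Chance marks about 1 group in 20 in this way.

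The sample with conflicting labels entered no comparison. Its log2 intensity was above every no-addition and batch sample in 7 genes, at 8.02 in PHO4, 7.37 in PHO5, 12.92 in PHO11, 10.43 in PHO12, 10.28 in PHO84, 7.02 in SPL2 and 8.43 in GIT1. The highest no-addition or batch values were 8.00, 6.98, 10.43, 9.08, 7.90, 6.74 and 7.95 in the same order. The gap was slight in PHO4 (8.019 against 8.004). In PHO8 (10.75) and PHO81 (8.33) the sample was below every no-addition and batch sample, whose lowest values were 11.35 and 8.67. PHO89, at 5.72, lay among them. The share of all features standing apart in this way was not computed.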

How the results depend on the processing

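Of 60 differences of the 10 genes, 42 were called, and their 1121 values under the alternatives all kept their sign. The call was lost in 35 of them, 20 within a single slide. Of 475 values of the 18 uncalled differences, 30 were called with the same sign: 8 in PHO8 and 7 in PHO11 for no addition minus batch, 8 in PHO8 for ammonium minus valine and 7 in PHO89 for ammonium minus batch. The 21 called differences of at least 0.75 lost none of 563. Leaving out 1 sample at a time gave 4 to 6 called genes for no addition minus batch, 8 to 8 for each supplement minus no addition, 4 to 6 for ammonium minus valine, 8 to 9 for ammonium minus batch and 8 to 8 for valine minus batch. Of all features 52.9% to 61.8% were then called for no addition minus batch and 8.02% to 21.2% for ammonium minus valine. For ammonium and valine minus no addition it was 61.4% to 70.3% and 62.9% to 70.4%, and minus batch 63.8% to 70.3% and 62.1% to 67.9%. Deviations of same-numbered samples correlated at -0.57 to 0.31. Of 19 pairs 4 were best with their own number, among them numbers 1 (0.305) and 2 (0.309) of no addition and batch. With 3 or 4 samples in a group this cannot decide whether the numbers pair the samples. With the replicate block the called genes numbered 6 for no addition minus batch, beside 55.1% of all features. There PHO11 at 0.18 gained the call, and the counts of the other comparisons were unchanged. Slide 1 alone called 1 gene and slide 2 alone 2 for no addition minus batch, beside 26.9% and 38.2% of all features, and 1 and 3 for ammonium minus valine, beside 0.608% and 3.65%. Without the dimmest 25% of features 5 genes were called for valine minus no addition, with 6 of the 10 still tested, beside 76.1% of all features. Of the further pathway genes, slide 1 alone called 12 for no addition minus batch (slide 2 alone 12), 16 for ammonium minus no addition, 14 for valine minus no addition and 0 for ammonium minus valine by limma (slide 2 alone 1, array weights 17). These counts are out of 39 genes. Of all features slide 1 alone called 26.9%, 39.6%, 44% and 0.608% in the same order of comparisons. Slide 2 alone called 38.2% for no addition minus batch and 3.65% for ammonium minus valine. For ammonium minus valine, array weights called 33.4% of all features, beside 16.4% without weights, where 10 of the 39 were called.

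Changes of sign arose in differences that were not called. For no addition minus batch they were PHO5 at -0.0045 on slide 1 and -0.002 without batch 1, ammonium 2 and valine 3, PHO89 at 0.0219 on slide 1, GIT1 at 0.0537 with slide as a block and 0.012 on slide 2, and PHO3 at 5e-04 with renewed quantile normalization, 0.1806 with array weights and 0.2033 on slide 2. PHO89 was at 0.0223 on slide 2 for valine minus no addition. PHO4 for ammonium minus valine was at -0.0554 with slide as a block, -0.0084 on slide 1, -0.0956 on slide 2 and -0.0293 with ammonium sample 3 taken from its slide 1 array. PHO4 against batch was at 0.0169 for ammonium with that sample from its slide 2 array and 0.037 for valine on slide 2. GPP2 on slide 1 was at 0.2167 for ammonium and 0.037 for valine, each minus no addition, and at -0.0211 for ammonium minus valine with the slide 2 array, and PHM7 was at 0.0388 for ammonium minus valine with slide as a block. Leaving out 1 sample gave -0.0043 to 0.0714 in PHO5, -0.1117 to 0.0471 in GIT1 and -0.3487 to 0.1289 in PHO3 for no addition minus batch, -0.0483 to 0.0147 in PHO89 for valine minus no addition, -0.0524 to 0.0738 in PHO4, -0.0851 to 0.0276 in PHM7 and -0.0712 to 0.1759 in GPP2 for ammonium minus valine, and -0.0719 to 0.0229 for ammonium and -0.0918 to 0.0344 for valine in PHO4 minus batch. Single slides hold fewer samples; the cause of the other changes was not tested. PHO89, SPL2 and PHO5 lie low on the scale, where differences may be understated.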
